A study of Mus musculus with 36 samples.

Results

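Triglyceride synthesis and glyceroneogenesis were followed through the transcripts of 10 genes, of the 55536 genes listed in each library. The genes were Gpam, Agpat2, Lpin1, Dgat1, Dgat2, Gpd1, Gpd2, Pck1, Aqp7 and Pdk4. They were chosen by name as enzymes, a channel and a kinase of these routes, with earlier results of these data known. They were matched by gene identifier to the GENCODE M21 symbols, and the choice set no threshold on a measured value. All 10 passed the filter on low counts that left 16723 genes for testing.

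The libraries came from brown pre-adipocytes in which Cas9 editing had disrupted Rxra, the gene of the nuclear receptor RXRα. From a clonal wild-type line, 2 knockout clones (48 and 66) were each grown out of a single cell, and each was transduced with a retroviral vector carrying mouse Rxra cDNA, either unchanged (RxraWT) or with the substitution S22A (RxraSA), in which alanine replaces the serine at residue 22 that insulin signalling phosphorylates. In the labels WT therefore means a knockout cell with RxraWT put back, not a wild-type cell. Each clone and genotype was sequenced at day 0 (confluent pre-adipocytes), day 2 and day 6 of differentiation in 3 libraries, which gave 36 libraries, 12 per day. All cells grew in medium with insulin and triiodothyronine, and dexamethasone, isobutylmethylxanthine and indomethacin were added for the 2 days after confluence only. Knockout cells with an empty vector were not analysed here, so nothing below compares cells with and without RXRα. Clone 48 was sequenced in pool 1 and clone 66 in pool 2, which confounds the clone with the pool: the 2 cannot be told apart. GEO's record names the 3 libraries of a line technical replicates and the study's methods name them independent, so the p-values measure the spread between these libraries, which may be technical.

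Total counts per library lay between 11351078 and 24349263. Levels are given in CPM, counts scaled to a common library total, after TMM scaling, which corrects for library composition. Rxra counts lay in similar ranges in both genotypes, for example between 182 and 338 CPM in RxraSA and between 187 and 347 CPM in RxraWT at day 6, and counts per gene cannot tell the 2 coding sequences apart. The labelled cell type was checked against 10 brown adipocyte markers, whose summed level lay between 109 and 223 CPM at day 0, between 2820 and 5250 CPM at day 2 and between 5430 and 9480 CPM at day 6. Adipoq, Fabp4, Plin1, Pparg and Cebpa carried that rise. Ucp1, the uncoupling protein that defines thermogenic brown fat, had no more than 5 counts in any library, and Dio2, Prdm16 and Cidea had no more than 27. Of 6 pre-adipocyte or fibroblast markers, the 4 that could be tested were all lower at day 6 than at day 0. Markers of skeletal muscle, leukocytes, endothelium and hepatocytes each had only 1 tested gene (Acta1, Cd68, Pecam1 and Apoa1), and no other marker of these lists passed 4 counts in any library, with the muscle factor Myod1 at 0 throughout. Their summed levels reached 11.8, 11.3, 0.872 and 1.31 CPM at most. Acta1, Cd68, Pecam1 and Apoa1 were higher at day 6 than at day 0, and their part in the changes below was not tested. In such bulk RNA, fewer cells of a type and less RNA per cell cannot be told apart.

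Triglyceride is assembled from glycerol 3-phosphate and fatty acyl-CoA. Acyltransferases of the GPAT family (Gpam) add the first acyl chain and those of the AGPAT family (Agpat2) add the next, lipins (Lpin1) remove the phosphate to give diacylglycerol, and DGAT1 and DGAT2 add the last chain. Glycerol 3-phosphate comes from the glycolytic intermediate dihydroxyacetone phosphate through cytosolic GPD1, and mitochondrial GPD2 runs the reverse oxidation and passes electrons to the respiratory chain. In glyceroneogenesis the carbon comes from pyruvate or lactate instead, through cytosolic PEPCK (Pck1). AQP7 is the adipocyte channel for glycerol, and PDK4 inhibits pyruvate dehydrogenase, which keeps pyruvate from oxidation. Brown fat makes and burns its own triglyceride, which it stores in many small droplets.

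All 10 genes were higher at day 6 than at day 0, and in none of them did the 12 libraries of day 6 overlap the 12 of day 0. The share of all genes without such overlap was not computed, so the lack of overlap is a description. At day 2, 8 of the 10 were already higher and none was lower. Across all genes tested, 32.9% were called higher and 35.4% lower at day 6 against day 0, and 35.8% higher and 37.5% lower at day 2 against day 0 (edgeR's quasi-likelihood test, Benjamini-Hochberg adjusted p under 0.05 over all genes). The median log2 fold change over the 10 genes was 3.12 at day 2 and 3.71 at day 6, with Pck1 entered at its lower bound, beside -0.02 and -0.03 over all genes. Scaling by library size alone moved the split of all genes from 5989 higher and 6270 lower to 4190 and 8264 at day 2, and from 5505 and 5919 to 4155 and 7758 at day 6, and left the rises of these genes called. Between day 2 and day 6 the genes parted: 5 rose (Gpam, Gpd1, Gpd2, Pck1 and Aqp7), 4 fell (Agpat2, Lpin1, Dgat1 and Pdk4) and Dgat2 passed the test in neither direction, where 31.9% of all genes were called higher and 30.1% lower.

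**Figure D1:**
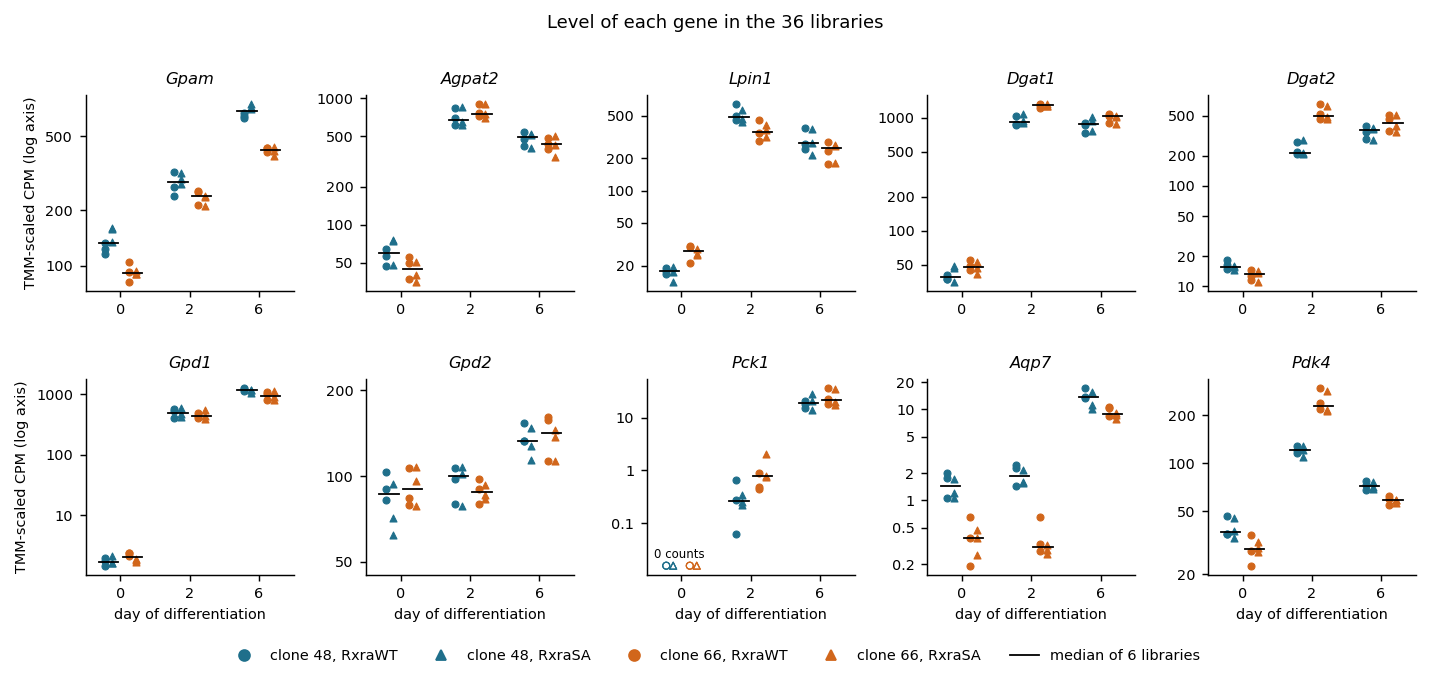
Level of each of the 10 genes in TMM-scaled CPM on a log axis, by day of differentiation. Each point is 1 of 36 libraries, colour gives the clone, shape gives the genotype, bars are medians of 6 libraries and open symbols mark Pck1 at 0 counts. The circles (RxraWT) and triangles (RxraSA) of a clone mostly share a range, apart from Gpam in clone 48 at days 0 and 6 and Gpd1 in clone 66 at day 0, and Gpd1 climbs from at most 2.34 CPM at day 0 to at least 811 CPM at day 6.

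**Figure D2:**
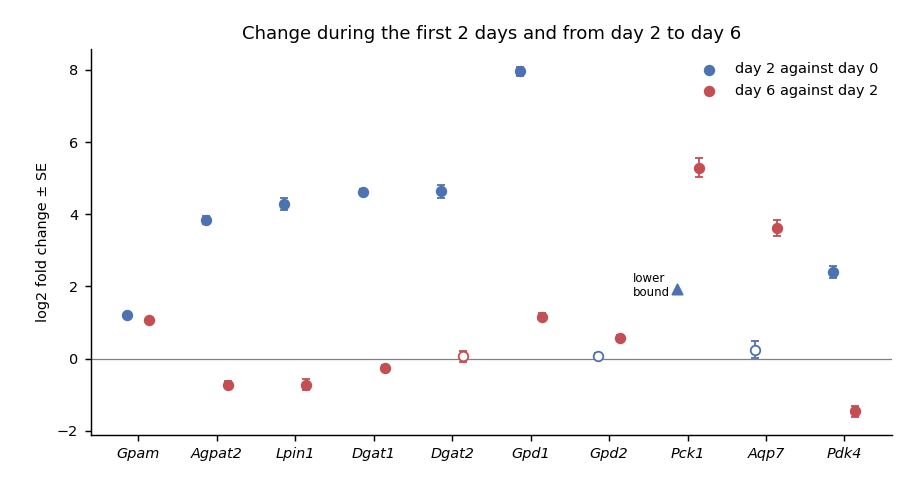
Log2 fold change (± SE) of each gene from day 0 to day 2 and from day 2 to day 6, over both clones and genotypes (12 libraries per day). Filled points passed the test, open points did not, and the triangle is the lower bound for Pck1, which had 0 counts at day 0. Agpat2, Lpin1, Dgat1 and Pdk4 rise and then fall back, while Pck1 and Aqp7 make most of their rise after day 2.

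Among the acyltransferases, Gpam (ENSMUSG00000024978, chr19:55067268-55127238 of GRCm38, minus strand), the mitochondrial GPAT, rose in both intervals. Counts cover the exons of each gene, untranslated parts included. In clone 48 its lowest, median and highest levels over 6 libraries were 116, 133 and 160 CPM at day 0, 238, 285 and 320 CPM at day 2 and 628, 686 and 751 CPM at day 6. In clone 66 they were 82.3, 91.4 and 105 CPM, then 211, 237 and 253 CPM, then 392, 424 and 438 CPM. The days did not overlap in either clone. The log2 fold change was 1.21 ± 0.0685 (SE) from day 0 to day 2 (adjusted p = 2.56e-17) and 1.06 ± 0.0683 from day 2 to day 6 (adjusted p = 2.15e-15), so that Gpam was 4.79-fold higher at day 6 than at day 0.

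Agpat2 (ENSMUSG00000026922, chr2:26593057-26604417, minus strand), which makes phosphatidic acid, peaked at day 2. Its lowest, median and highest levels over the 12 libraries of a day were 35.5, 50.1 and 76.4 CPM at day 0, 615, 732 and 909 CPM at day 2 and 342, 456 and 543 CPM at day 6. Every day-2 library exceeded every day-6 library. The rise was 14.4-fold by day 2 (log2 3.84 ± 0.119, adjusted p = 9.19e-25), and from day 2 to day 6 the level fell by 0.72 on the log2 scale (SE 0.106, adjusted p = 3.57e-07). Its exons share 3.005% of their bases with Egfl7 on the other strand (17 to 89 counts per library).

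Lpin1 (ENSMUSG00000020593, chr12:16535669-16610966, minus strand), the phosphatidate phosphatase, followed the same course at a lower level. It stood at 14.2, 20.4 and 30.2 CPM (lowest, median, highest of 12) at day 0, at 292, 446 and 646 CPM at day 2 and at 175, 263 and 386 CPM at day 6. Here days 2 and 6 overlapped. The rise was 19.5-fold by day 2 (log2 4.28 ± 0.164, adjusted p = 3.50e-22) and the later fall was 0.72 on the log2 scale (change -0.72 ± 0.142, adjusted p = 4.24e-05).

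Dgat1 (ENSMUSG00000022555, chr15:76502015-76511953, minus strand) and Dgat2 (ENSMUSG00000030747, chr7:99153658-99182719, minus strand), which are unrelated in sequence and catalyse the same last step, both rose by day 2. Over both clones together the factors were close, 24.7-fold and 24.9-fold (log2 4.63 ± 0.0799 and 4.64 ± 0.177). They were not close within a clone. The log2 rise of Dgat2 was 3.87 in clone 48 alone and 5.39 in clone 66 alone, while that of Dgat1 lay between 4.37 and 4.76 under all alternatives. Dgat1 stood at 35.6, 45.8 and 55.7 CPM at day 0, at 870, 1146 and 1334 CPM at day 2 and at 738, 920 and 1084 CPM at day 6. Its fall after day 2 was small (log2 -0.25 ± 0.0686, adjusted p = 0.00185), days 2 and 6 overlapped, and in clone 48 fitted alone the fall did not pass the test (-0.10 ± 0.105, adjusted p = 0.458). Dgat2 stood at 11.2, 14.5 and 18.4 CPM at day 0, at 208, 374 and 661 CPM at day 2 and at 285, 374 and 512 CPM at day 6. From day 2 to day 6 Dgat2 did not pass the test (0.07 ± 0.151, 95% interval -0.23 to 0.36, adjusted p = 0.718). Its wide range at day 2 held both clones, which did not overlap there.

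Gpd1 (ENSMUSG00000023019, chr15:99717515-99725005, plus strand), the cytosolic source of glycerol 3-phosphate, had the largest fitted change of the 10. It stood at 1.45, 1.87 and 2.34 CPM (lowest, median, highest of 12) at day 0, with 24 to 61 counts per library, at 395, 453 and 587 CPM at day 2 and at 811, 1118 and 1289 CPM at day 6. The 3 days did not overlap. Gpd1 was 249-fold higher at day 2 (log2 7.96 ± 0.119, adjusted p = 2.80e-33) and 559-fold higher at day 6 (log2 9.13 ± 0.124, adjusted p = 6.07e-35) than at day 0. Of its exon bases 13.0% lie over the antisense gene Gm16537, which had between 1 and 25 counts per library, and since the counting used no strand, reads there cannot be assigned to either gene.

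Gpd2 (ENSMUSG00000026827, chr2:57237635-57370719, plus strand), the mitochondrial enzyme of the glycerol phosphate shuttle, had the smallest change of the 10 from day 0 to day 6. It stood at 61.8, 86.9 and 107 CPM at day 0, at 78.6, 91.5 and 107 CPM at day 2 and at 113, 135 and 161 CPM at day 6. Days 0 and 2 overlapped almost wholly (log2 0.06 ± 0.0842, 95% interval -0.10 to 0.23, adjusted p = 0.497), while every day-6 library lay above every library of the other days. The rise from day 0 to day 6 was 1.55-fold (log2 0.63 ± 0.0844, adjusted p = 4.11e-08). With library size alone as the scaling, which moved the median of all genes at day 2 to -0.27, Gpd2 was at -0.19 (adjusted p = 0.034), above that median as it was under TMM. Of its exon bases 7.44% lie over A930012O16Rik on the other strand (6 to 42 counts per library).

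The ratio of Gpd1 to Gpd2, each per kb of exon, therefore turned over during differentiation. Over days 0, 2 and 6 its medians were 0.0431, 10.3 and 19.5 in the 6 libraries of clone 48. In clone 66 they were 0.0482, 11.3 and 15.7. The highest day-0 library had a ratio of 0.0653 and the lowest day-2 library a ratio of 8.97.

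Pck1 (ENSMUSG00000027513, chr2:173153048-173159273, plus strand), whose product makes phosphoenolpyruvate for glyceroneogenesis, was the only one of the 10 with no read at day 0. All 12 day-0 libraries had 0 counts. At day 2 the libraries of clone 48 had between 1 and 10 counts and those of clone 66 between 8 and 35. At day 6 the counts were between 248 and 459 in clone 48 and between 324 and 691 in clone 66, or 13.99, 20.3 and 37.1 CPM (lowest, median, highest of 12). Against a floor of 3 counts in each day-0 library, Pck1 was at least 3.81-fold higher at day 2 and at least 142-fold higher at day 6. From day 2 to day 6 the change was 39.2-fold (log2 5.29 ± 0.268, adjusted p = 7.75e-15).

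Aqp7 (ENSMUSG00000028427, chr4:41033074-41048139, minus strand), the glycerol channel, also made its rise after day 2. It stood at 0.192, 0.865 and 2.00 CPM at day 0 and at 0.257, 1.04 and 2.47 CPM at day 2, with 5 to 38 counts per library on these days, and at 7.87, 10.5 and 17.4 CPM at day 6. Days 0 and 2 overlapped in each clone (log2 0.25 ± 0.243, 95% interval -0.23 to 0.72, adjusted p = 0.363). The rise from day 2 to day 6 was 12.2-fold (log2 3.61 ± 0.22, adjusted p = 4.82e-16).

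Pdk4 (ENSMUSG00000019577, chr6:5483351-5496309, minus strand), the pyruvate dehydrogenase kinase, was highest at day 2. It stood at 22.7, 34.5 and 46.8 CPM at day 0, at 110, 171 and 299 CPM at day 2 and at 54.6, 65.0 and 77.1 CPM at day 6, with no overlap between any 2 days. It rose 5.27-fold by day 2 (log2 2.40 ± 0.164, adjusted p = 3.67e-15) and then changed by -1.47 ± 0.159 on the log2 scale (adjusted p = 6.57e-10), which left it 1.91-fold above day 0 (adjusted p = 2.65e-06). Dexamethasone, isobutylmethylxanthine and indomethacin left the medium over the same interval, and medium and day cannot be told apart.

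On a common scale of CPM per kb of exon, the order of the 10 genes changed with the day. At day 0 Agpat2 led with 24.8 ± 6.28 (SD, n = 12), followed by Gpam, Dgat1, Gpd2 and Pdk4, and Gpd1 was eighth with 0.637 ± 0.0981. At day 2 Dgat1 (366 ± 62) and Agpat2 (352 ± 48.6) stood together at the top, with Dgat1 ahead in 6 of 12 libraries. At day 6 Gpd1 led with 359 ± 53, ahead of Dgat1 (305 ± 36.5) in 10 of 12 libraries, and these 2 changed places when the length of the longest coding transcript was used. Pck1 (6.49 ± 2.15) and Aqp7 (4.03 ± 1.06) were the lowest at day 6, and the ranges of this pair overlapped. Other neighbours followed the mean order in fewer than 9 of 12 libraries. At day 0 these were Gpam over Dgat1 (6 of 12) and Dgat1 over Gpd2 (5 of 12). At day 2 they were Gpd1 over Dgat2 and Pdk4 over Lpin1 (6 of 12 each) and Aqp7 over Pck1 (7 of 12), and at day 6 Gpd2 over Pdk4 (8 of 12).

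The members were set beside the other enzymes of their own families, which were drawn from the related lists after their values had been seen, as shares of the family's summed CPM per kb. Agpat2 held a median of 37.4% of the AGPAT family (Agpat1 to Agpat5) at day 0, 83.2% at day 2 and 74.9% at day 6. Lpin1 went from 16.3% of the 3 lipins to 89.3% and 75.2%, and its lowest day-2 library (84.4%) was far above its highest day-0 library (18.9%). Gpd1 went from 7.06% of the cytosolic pair Gpd1 and Gpd1l to 89.6% and 97.0%.

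Gpam did not hold such a share at day 2 or day 6, and Pdk4 held one at day 2 only. Gpam made up 48.0% of the GPAT family at day 0 and 8.25% at day 2, when Gpat3, a GPAT of the endoplasmic reticulum, held 83.1%. At day 6 Gpam and Gpat3 stood at 43.3% and 45.8%. Pdk4 rose from 28% to 76.3% of the PDK family at day 2 and was at 14.4% at day 6, when Pdk1 held 69.1%. Pck1 reached 16.4% of the summed level of Pck1 and Pck2, the mitochondrial PEPCK, at day 6. With the longest coding transcript as the length these median shares were 41.6% for Gpam, 10.4% for Pdk4 and 13.0% for Pck1 at day 6.

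3 related lists put the members in context, each described by counts over its tested genes. Of 16 other acyltransferases, phosphatidate phosphatases and DGAT-like enzymes, 13 were tested, and 7 were higher and 6 lower at day 6 against day 0, with a median log2 fold change of 0.44. Gpat3 (5.25 ± 0.129, adjusted p = 1.27e-27) and Agpat3 (2.11 ± 0.082, adjusted p = 5.50e-22) had the smallest adjusted p among those that rose, and Plpp1 (-1.50 ± 0.0954) and Plpp2 (-0.85 ± 0.0705), lipid phosphate phosphatases, among those that fell. Gpat3 stood at 8.43 CPM at day 0, 1310 CPM at day 2 and 321 CPM at day 6 (means of 12). At day 2, 9 of the 13 were higher and 4 lower, and from day 2 to day 6, 3 rose and 7 fell.

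Of 13 other genes of glycerol 3-phosphate, glycerol and pyruvate, 11 were tested, and 7 were higher and 3 lower at day 6 than at day 0 (median 0.46). Pdk1 (6.04 ± 0.246, adjusted p = 1.97e-21) and Pcx (4.03 ± 0.194, adjusted p = 2.26e-19), the pyruvate carboxylase that feeds PEPCK with oxaloacetate, rose. Pdp1 (-1.01 ± 0.117), a pyruvate dehydrogenase phosphatase, and Pdk3 (-0.37 ± 0.0797) fell. Pdk1 made its rise after day 2 (16, 26.8 and 710 CPM on the 3 days, means of 12), and Pcx before it (98.7, 1490 and 1620 CPM). Of 10 genes of the branch to phospholipids, 9 were tested, and 4 were higher and 4 lower (median -0.03), among them Pcyt2 (0.76 ± 0.0645) and Chpt1 (1.74 ± 0.176) higher and Pcyt1b (-3.73 ± 0.142) and Pcyt1a (-0.33 ± 0.0381) lower. No gene of the 3 lists was called between the genotypes on any day.

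For each member the 2 genes with the most similar profile were sought by Pearson's r over the 12 means of clone, genotype and day, among 9381 genes. These means share the same libraries and mostly follow the day, so the values are a description. Gpd1 was closest to Fabp4, the fatty acid binding protein of adipocytes (r = 0.998), and Agpat2 to Acsl1, an acyl-CoA synthetase, and Abhd15 (both r = 0.997). Dgat1 was closest to Slc25a39 and Aifm2, Dgat2 to Mmd and Cib2, Lpin1 to C030006K11Rik and Lrig1, and Gpam to Gnb5 and Ccni, all with r of at least 0.992. Aqp7 was closest to Ivd and Pdk1 (r = 0.992 and 0.991), Pck1 to Cmbl and Cope (0.994 and 0.990) and Pdk4 to Ankrd9 and Echdc2 (0.996 and 0.993). Gpd2 had the lowest of these values, with Pard6g (0.974) and Usf2 (0.973).

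Promoter sequence is shown for 4 genes with different timing. Gpam rose in both intervals, Lpin1 rose by day 2 and then fell, and Pck1 and Aqp7 made most of their rise after day 2. Each stretch holds the 120 bases before the first base that RefSeq or GENCODE annotates as transcribed, read on the gene's strand from RefSeq (GRCm38.p6). Capitals mark matches to the motifs searched on both strands of the 250 bases before each RefSeq start site. The stretches lie at chr19:55127239-55127358 on the minus strand (Gpam), chr12:16610967-16611086 on the minus strand (Lpin1), chr2:173152928-173153047 on the plus strand (Pck1) and chr4:41048140-41048259 on the minus strand (Aqp7), all upstream of exons and outside any GENCODE gene.
Gpam: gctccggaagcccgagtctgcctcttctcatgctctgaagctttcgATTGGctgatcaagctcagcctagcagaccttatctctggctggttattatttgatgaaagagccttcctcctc
Lpin1: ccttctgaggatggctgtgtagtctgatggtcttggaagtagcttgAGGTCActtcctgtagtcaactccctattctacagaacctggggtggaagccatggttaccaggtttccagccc
Pck1: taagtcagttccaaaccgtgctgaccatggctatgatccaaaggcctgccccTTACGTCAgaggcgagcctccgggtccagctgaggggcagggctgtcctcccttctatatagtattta
Aqp7: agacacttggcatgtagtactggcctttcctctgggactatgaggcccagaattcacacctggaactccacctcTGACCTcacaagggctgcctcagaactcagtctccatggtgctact

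The Pck1 stretch holds a cAMP response element of the form TNACGTCA at bases -93 to -86 from the RefSeq start site, which 2.52% of 32851 promoters of the same length hold. Lpin1 (-74 to -69) and Aqp7 (-49 to -44, on the other strand) hold AGGTCA, the core hexamer bound by nuclear receptors, found in 14% of promoters (4607 of them), and Gpam holds CCAAT on the other strand (-74 to -70), found in 33.8%. An exact direct repeat of the hexamer with 1 base between (AGGTCANAGGTCA, in 0.0335% of promoters) was in no window of the 7 members with an entry, nor were TATAAA (12.4%) or CACGTG (6.02%). Elsewhere in the windows, Agpat2 and Pck1 held the GC box GGGCGG (32.7%), Pdk4 held CCAAT, and Gpd2 held TTGCNNAA (9.56%), the form bound by C/EBP factors. Windows at alternative starts held AGGTCA (Gpam and Aqp7) and GGGCGG (Gpam and Gpd2). Dgat1, Dgat2 and Gpd1 had no entry.

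RxraSA was compared with RxraWT on each day to ask whether the serine that insulin signalling phosphorylates matters for these transcripts. None of the 10 genes was called on any day, and none had an unadjusted p under 0.05. At day 0 this rests on 9 genes, since Pck1 had 0 counts in every library of that day. Over all genes 0.0% were called at day 0, 0.0% at day 2 and 0.0% at day 6 by edgeR (139, 162 and 125 genes at an unadjusted p under 0.05). At day 6 mean levels were 570 ± 170 CPM in RxraSA and 538 ± 122 CPM in RxraWT for Gpam (SD, n = 6 each), 943 ± 105 and 920 ± 127 CPM for Dgat1, 1035 ± 151 and 1094 ± 172 CPM for Gpd1, and 22.6 ± 7.66 and 22.0 ± 7.78 CPM for Pck1. With the clones pooled, the genotypes overlapped for every gene on every day. Within a clone, with 3 libraries of each genotype, they were apart in 3 of 58 combinations of gene, clone and day with reads. The share of all genes apart in this way was not computed, so these 3 are a description. Gpam in clone 48 was between 116 and 132.5 CPM in RxraWT and between 134 and 160 CPM in RxraSA at day 0, and between 628 and 670 CPM against 702 and 751 CPM at day 6. Gpd1 in clone 66 at day 0 was between 2.103 and 2.342 CPM in RxraWT and between 1.701 and 1.899 CPM in RxraSA. In clone 48 fitted alone, Gpam was not called at day 0 (0.26 ± 0.129, adjusted p = 0.915) or day 6 (0.16 ± 0.129, adjusted p = 1.0).

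Same-numbered libraries of the 2 genotypes deviated together, and a fit with a replicate block within each day, which compares each RxraSA library with its RxraWT partner, had smaller errors (median SE over all genes 0.106 at day 0 and day 6, against 0.185 and 0.186). It gave 704, 692 and 477 genes at an unadjusted p under 0.05 on days 0, 2 and 6, and called 1 gene, none of the 10, at day 2. The smallest unadjusted p of the 10 in this fit was 0.0554 at day 0 (Gpam, 0.13 ± 0.0651), 0.0575 at day 2 (Pck1, 0.62 ± 0.306) and 0.0549 at day 6 (Aqp7, -0.24 ± 0.118), with adjusted p of 0.807, 1.0 and 1.0. The block called none of the 10.

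The intervals of the unpaired fit show what sizes that fit leaves room for. They ignore the pairing, and the median SE over all genes was smaller with the block within each day. At day 6 the log2 fold changes of RxraSA against RxraWT lay between -0.23 (Aqp7) and 0.08 (Pck1). The narrowest 95% intervals were those of Gpam (0.07, from -0.12 to 0.25) and Dgat1 (0.04, from -0.15 to 0.23), and the widest was that of Pck1 (-0.48 to 0.63). Aqp7 was lower in RxraSA in 4 of 6 pairs of libraries at day 6 (-0.23, from -0.73 to 0.28) and Gpd2 in 5 of 6 (-0.12, from -0.35 to 0.12). At day 2 Pck1 was higher in RxraSA in 5 of 6 pairs (0.58, from -0.30 to 1.47, unadjusted p = 0.206 in edgeR's test), at 1 to 35 counts per library. That value was 0.29 without replicate 2 of clone 66 and 0.88 without replicate 1 of clone 48, and it was -0.26 in clone 48 alone and 0.93 in clone 66 alone.

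A change over time that depends on the genotype was tested as an interaction. None of the 10 genes was called for day 2 minus day 0 (0.0% of all genes called), day 6 minus day 0 (0.0%) or day 6 minus day 2 (0.0%), where 144, 128 and 153 genes had an unadjusted p under 0.05. Apart from Pck1, whose value was -0.51 ± 0.531 for day 6 minus day 2, no interaction exceeded 0.17 in size. Pck1 had 0 counts in both genotypes at day 0 and has no value in the other 2 interactions. DESeq2 called none of the 10 on any day or in any interaction.

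**Figure D3:**
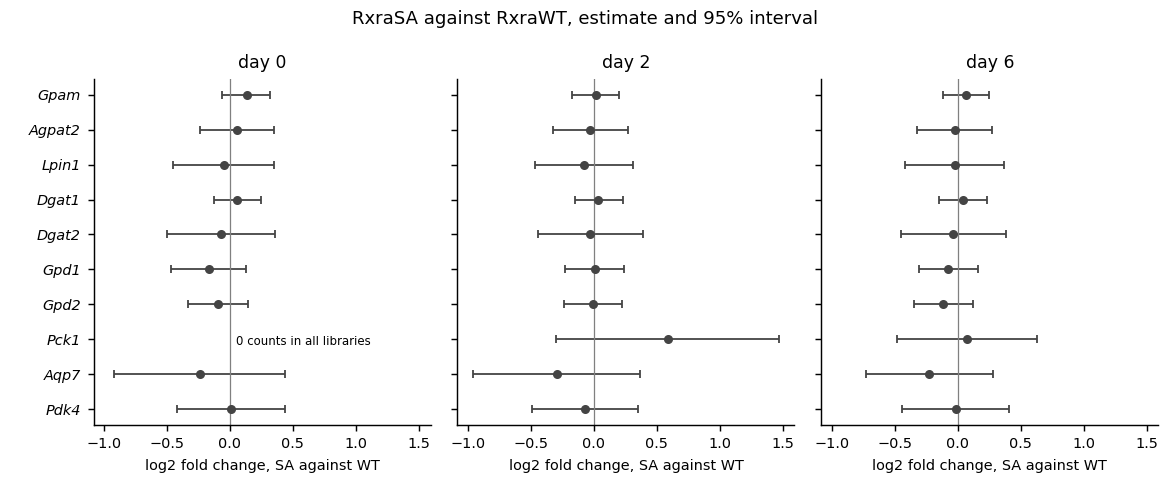
Log2 fold change of RxraSA against RxraWT with its 95% interval from the unpaired fit, for each gene at day 0, day 2 and day 6 (6 libraries of each genotype per day). Every interval crosses 0, and they are narrowest for Gpam and Dgat1 and widest for Pck1 and Aqp7, the genes with the fewest counts. Pck1 had 0 counts in all libraries at day 0.

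The clones differed where the genotypes did not. At day 0 clone 66 was higher than clone 48 for 1 gene (Lpin1) and lower for 4 (Gpam, Agpat2, Aqp7 and Pdk4), where 12.6% of all genes were called higher and 11.1% lower. At day 2 it was higher for 4 (Dgat1, Dgat2, Pck1 and Pdk4) and lower for 3 (Gpam, Lpin1 and Aqp7), beside 14.5% and 15.5% of all genes. At day 6 it was higher for none and lower for 3 (Gpam, Aqp7 and Pdk4), beside 13.4% and 12.8%. 

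Gpam was lower in clone 66 throughout. The log2 difference was -0.56 ± 0.0777 at day 0 (adjusted p = 1.81e-06), -0.29 ± 0.0773 at day 2 (adjusted p = 0.0048) and -0.70 ± 0.0775 at day 6 (adjusted p = 4.60e-08), and the clones did not overlap at days 0 and 6. The day-2 call was lost without replicate 3 of clone 48 (-0.18, adjusted p = 0.104), without replicate 1 of clone 66 (-0.22, 0.0517) and without the filter (0.15).

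Aqp7 showed the widest gap. In clone 48 it stood at 1.07, 1.45 and 2.00 CPM at day 0 and in clone 66 at 0.192, 0.385 and 0.662 CPM, and at day 2 at 1.43, 1.87 and 2.47 CPM against 0.257, 0.307 and 0.654 CPM. The clones did not overlap on either day, and clone 66 was 3.72-fold and 5.33-fold lower (log2 -1.89 ± 0.246 and -2.41 ± 0.253, adjusted p = 7.19e-07 and 1.23e-08). These values rest on few counts per library, 21 to 36 in clone 48 and 5 to 13 in clone 66 at day 0. At day 2 the counts were 23 to 38 and 5 to 12. At day 6 the gap had narrowed to 1.47-fold (-0.56 ± 0.174, adjusted p = 0.0164), the clones overlapped, and the call was lost without replicate 1 or 2 of clone 48 (adjusted p = 0.0742 and 0.0775).

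Dgat2 and Pdk4 separated the clones at day 2. Dgat2 stood at 208, 215 and 290 CPM in clone 48 and at 459, 498 and 661 CPM in clone 66 (log2 1.19 ± 0.127, adjusted p = 1.74e-08). Pdk4 stood at 110, 121 and 129 CPM in clone 48 and at 212, 229 and 299 CPM in clone 66 (1.02 ± 0.103, adjusted p = 7.08e-09). Neither gene overlapped between the clones at day 2, and at day 6 Dgat2 was not called (0.32 ± 0.125, adjusted p = 0.0569) and Pdk4 was lower in clone 66 (-0.32 ± 0.103, adjusted p = 0.0226). That last call was lost without replicate 1 or 2 of clone 48, without replicate 2 of clone 66 and without the filter (adjusted p = 0.0529, 0.102, 0.0901 and 0.142). Dgat1 was also higher in clone 66 at day 2 (0.44 ± 0.0936, adjusted p = 4.99e-04).

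Lpin1 changed sides. Clone 66 was 1.54-fold higher at day 0 (0.62 ± 0.155, adjusted p = 0.0034) and lower at day 2 (-0.49 ± 0.151, adjusted p = 0.0127), the latter a call lost without replicate 3 of clone 48 (adjusted p = 0.09) or replicate 1 or 2 of clone 66 (0.0709 and 0.0741). Pck1 at day 2 (1.49 ± 0.446, adjusted p = 0.0147) rested on 28 counts in all of clone 48 and 97 in clone 66, and was lost without replicate 3 of clone 48 (1.18, adjusted p = 0.0901) or replicate 2 of clone 66 (1.00, 0.0721). Agpat2 at day 0 (-0.45 ± 0.138, adjusted p = 0.0176) was lost without replicate 1 or 2 of clone 48 or replicate 3 of clone 66 (adjusted p = 0.161, 0.0895 and 0.163), and without the RxraSA library 1 of clone 48 alone (0.0514). Pdk4 at day 0 (-0.43 ± 0.104, adjusted p = 0.00269) was lost without replicate 2 of clone 48 (0.0814).

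**Figure D4:**
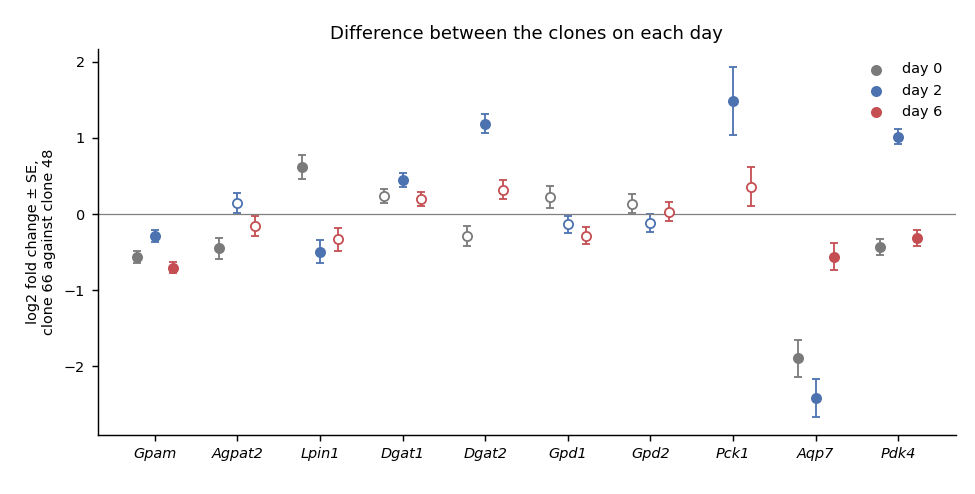
Log2 difference of clone 66 from clone 48 (± SE) for each gene at day 0, day 2 and day 6, over both genotypes (6 libraries per clone and day). Filled points passed the test and open points did not. Aqp7 lies lowest at days 0 and 2 and nearer to 0 at day 6. At day 2 Pck1, with few counts, is farthest above 0, followed by Dgat2. Pdk4 is above 0 at day 2 and below it at days 0 and 6.

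Whether the change over time itself differed between the clones was tested as an interaction of clone and time. For day 2 minus day 0, Dgat2 (1.48 ± 0.181, adjusted p = 1.94e-06) and Pdk4 (1.44 ± 0.147, adjusted p = 7.59e-08) rose more in clone 66 and Lpin1 rose less (-1.12 ± 0.216, adjusted p = 0.00101), where 6.84% of all genes were called in either direction. Fitted alone, clone 48 gave rises of 3.87 for Dgat2, 1.61 for Pdk4 and 4.85 for Lpin1, and clone 66 gave 5.39, 3.10 and 3.78 (log2). For day 6 minus day 0 the calls were Aqp7 (1.33 ± 0.301, adjusted p = 0.00754) and Lpin1 (-0.95 ± 0.216, adjusted p = 0.00765), with 3.85% of all genes called. Both were lost without replicate 2 of clone 48 (adjusted p = 0.0546 and 0.0617), and Lpin1 also without its replicate 3 (0.0545) or without replicate 1 of clone 66 (0.0668).

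For day 6 minus day 2, Aqp7 rose more in clone 66 (1.85 ± 0.309, adjusted p = 1.81e-04), and Pdk4 (-1.33 ± 0.146, adjusted p = 3.28e-07), Dgat2 (-0.86 ± 0.177, adjusted p = 0.00189) and Gpam (-0.41 ± 0.109, adjusted p = 0.0178) gave negative differences, with 6.18% of all genes called. In clone 48 alone Dgat2 rose after day 2 (0.58 ± 0.117, adjusted p = 5.42e-04), whereas in clone 66 alone its change was -0.31 ± 0.135 (adjusted p = 0.0639). The Dgat2 difference was lost without replicate 3 of clone 48 (-0.72, adjusted p = 0.0509). The Gpam difference was lost without replicate 1 or 2 of clone 48 (0.0739 and 0.123), without replicate 2 or 3 of clone 66 (0.106 and 0.125) and without the filter (0.271). With the replicate number as a block, 3 more differences between the clones were called: Agpat2 for day 2 minus day 0 (0.59, adjusted p = 0.00153), and Dgat2 (0.60, adjusted p = 0.00133) and Gpd1 (-0.53, adjusted p = 0.0449) for day 6 minus day 0.

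The balance of Dgat1 and Dgat2 shows the clone difference in single libraries. Per kb of exon, Dgat1 exceeded Dgat2 in all 36 libraries. At day 2 the ratio was 3.73, 4.12 and 4.46 (lowest, median, highest of 6) in clone 48 and 1.98, 2.54 and 2.90 in clone 66, without overlap. At day 0 the medians lay the other way, at 2.62 in clone 48 and 3.66 in clone 66, with ranges that overlapped, and at day 6 they were 2.59 and 2.16.

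**Figure D5:**
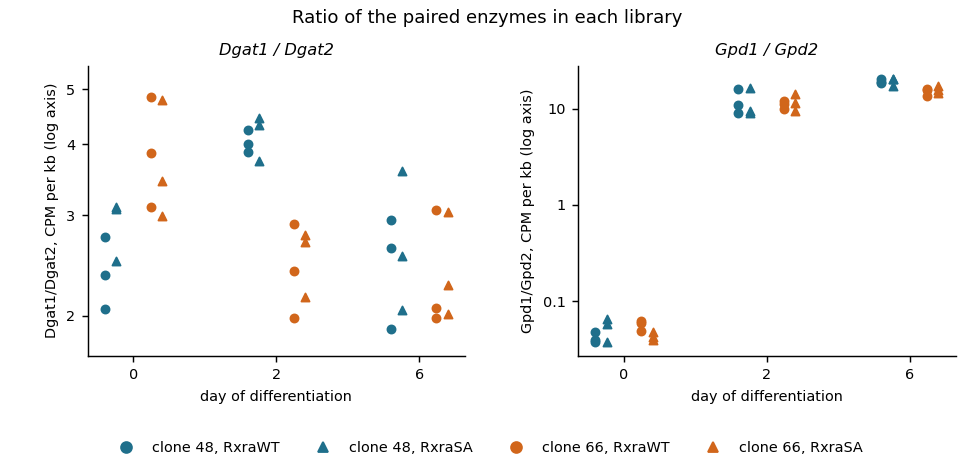
Ratio of Dgat1 to Dgat2 and of Gpd1 to Gpd2 in each of 36 libraries, each gene as CPM per kb of exon, on log axes, by day. Colour gives the clone and shape the genotype. The clones are apart for Dgat1 to Dgat2 at day 2, and Gpd1 to Gpd2 moves from at most 0.0653 at day 0 to at least 8.97 at day 2.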

How the data were processed

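RNA of 36 libraries was sequenced as paired ends from a stranded total RNA kit. The authors aligned reads to GRCm38 with STAR 2.7.0d and counted them on GENCODE M21 exons with featureCounts 1.6.2, and the deposited values are raw gene counts, not normalized. Per the file headers the counting ignored strand and left out chimeric pairs and pairs with 1 mapped end. Total counts per library bound the precision, and intervals cover the spread between libraries.

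Groups came from the sample titles. Genes passing filterByExpr were scaled by TMM and tested with the quasi-likelihood F test of edgeR 4.0.16 in its earlier form, which is the test the study's methods name (edgeR 3.24.3). The model held each genotype and day plus the clone, and the clone contrasts held each clone, genotype and day. SE is the log2 fold change over the root of F, and 95% intervals are the estimate ± 1.96 SE. Genes with a Benjamini-Hochberg adjusted p under 0.05 over all genes tested were called. The scripts were tested on simulated data. Levels per length used the union of exons.

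Same-numbered RxraWT and RxraSA libraries deviated together from their group means (r between 0.176 and 0.93 in 18 pairs, 9381 genes), so replicate numbers were taken to pair the samples. No 2 replicates agreed within counting noise (chi-square per degree of freedom of at least 12.02). Alternatives were DESeq2 1.42.0, other scalings and filters, the replicate block, each clone alone, the version 4 form, another length and leaving out replicates. The members, lists and motifs were chosen with earlier results of these data known. The text names all members, for each related list the 2 genes with the smallest adjusted p in each direction at day 6, and for each member the 2 most similar genes.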

Additional observations from a re-analysis of the deposited data

Results flagged for a closer look

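The change over time differed between the clones, by the test of the difference itself, for the following results (log2, clone 66 minus clone 48, edgeR's quasi-likelihood test). For day 2 minus day 0 these were Dgat2 (1.48), Pdk4 (1.44) and Lpin1 (-1.12). For day 6 minus day 0 they were Aqp7 (1.33) and Lpin1 (-0.95). For day 6 minus day 2 they were Aqp7 (1.85), Pdk4 (-1.33), Dgat2 (-0.86) and Gpam (-0.41). Clone and library pool cannot be told apart in these values. Groups of 3 libraries were too small for a check of single outlying libraries.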

How the results depend on the processing

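All 7 rises with a fitted value at day 2, all 9 at day 6 against day 0 and 8 of 9 changes from day 2 to day 6 were called in the same direction under each of 17 alternatives, the exception being Dgat1 in clone 48 alone. No alternative called a member between genotypes or in an interaction of genotype and time, the replicate block changed no day or genotype call, and the block within each day, fitted to genotype contrasts only, changed none of those (Pck1 at day 2 was 0.62). With the replicate block, 2 members were called higher and 2 lower for clone by time, day 6 minus day 0, in place of 1 and 1, and 2 were called higher there with DESeq2, with the filter of 1 CPM in at least 6 libraries and with the version 4 form. Scaling by library size alone, which moved the median of all genes at day 2 to -0.27, called 1 member lower at day 2 and 5 lower in clone 66 at day 6. Leaving out 1 replicate gave between 2 and 4 members lower in clone 66 at day 0, between 1 and 3 lower at day 2, between 0 and 1 higher and 1 and 3 lower at day 6, between 2 and 4 higher for clone by time, day 2 minus day 0, and between 0 and 1 higher and 0 and 1 lower for day 6 minus day 0.

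The signs that turned belonged to changes that had not passed the test. Gpd2 at day 2 was -0.19 by library size alone (above the all-gene median), -0.03 in clone 66 alone and between -0.0077 and 0.12 with 1 replicate left out. Aqp7 at day 2 was -0.01 by library size and -0.10 in clone 66. Dgat2 from day 2 to day 6 was -0.31 in clone 66 and between -0.05 and 0.19 with 1 replicate left out. Between clones at day 6, Gpd2 was -0.03 by library size and between -0.05 and 0.16 with 1 replicate left out, and Pck1 between -0.002 and 0.55. Clone by time gave between -0.10 and 0.006 for Dgat1 (day 6 minus day 0) and between -0.0046 and 0.24 for Gpd2 (day 6 minus day 2). Genotype differences, none of them called, turned too, among them Pck1 at day 2 (-0.26 in clone 48, 0.93 in clone 66), Agpat2 at day 0 (0.23 and -0.17) and Gpd2 at day 0 (-0.29 and 0.07). Beyond the scaling, the causes were not tested.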
